A study of Mus musculus with 18 samples.

Results

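The genes examined encode 10 surface proteins of T cells, most of them inhibitory receptors or members of the CD28 family: Cd28, Icos, Ctla4, Pdcd1, Btla, Lag3, Tigit, Havcr2, Cd200 and Cd69. They were found by gene symbol in all 18 tables of the series, as 10 of 23284 symbols in the mouse tables and, in upper case, as 10 of 25548 symbols in the human ones. The 18 RNA sequencing libraries formed 6 groups of 3. ST2-high memory T helper 2 (Th2) cells spent 3 days in culture with IL-2 and IL-33 or with IL-2 alone, ST2 being the receptor chain that binds IL-33. Eosinophils were likewise kept for 3 days with or without amphiregulin, a growth factor of the EGF family. Whole lungs came from OVA-treated dGATA mice, labelled as knockouts, and from OVA-treated wild-type mice. The series' design text names HDM for the lungs where the sample labels say OVA, and the labels were followed. The labels name BALB/c mice for all groups, do not spell out the dGATA allele, and give no source, such as separate animals or cultures, for the replicates, so p-values measure the spread between these samples, which may be technical. The eosinophil tables list human genes, although their labels name the mouse, and were read as human.

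T cells need a second signal beside the antigen receptor, and CD28 delivers it on binding CD80 or CD86 on another cell. ICOS, a related receptor, binds ICOS ligand and sustains helper T cells, whereas CTLA-4 takes CD80 and CD86 away from CD28 and dampens the response. PD-1 (Pdcd1) and BTLA belong to the same family and inhibit through tyrosine phosphatases, LAG-3 binds MHC class II, TIGIT competes with CD226 for the poliovirus receptor, and TIM-3 (Havcr2) binds galectin-9 among others. Cd200 and Cd69 are neither inhibitory T cell receptors in the strict sense nor CD28 relatives: CD200 is a ligand that quiets myeloid cells through its receptor, and CD69 is an early activation marker that holds lymphocytes in tissue by removing the receptor S1PR1 from the surface.

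In the tables' mm10 coordinates, Cd28 (chr1:60746388-60773359), Ctla4 (chr1:60909025-60915830) and Icos (chr1:60977914-61000321) lay side by side, with 135665 bp between Cd28 and Ctla4 and 62083 bp between Ctla4 and Icos. Pdcd1 (chr1:94038305-94052553) was on the same chromosome. Btla (chr16:45224337-45252895) and Cd200 (chr16:45382135-45409053) were 129239 bp apart, on the chromosome that also holds Tigit (chr16:43648861-43664184). Lag3 (chr6:124904359-124911705) and Cd69 (chr6:129267325-129275369) shared chromosome 6, and Havcr2 was at chr11:46454931-46481254.

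The 250 bases before the start of 6 members (Ctla4, Pdcd1, Tigit, Havcr2, Btla and Cd200) were matched by symbol in RefSeq's table for GRCm38.p6. Shown are Ctla4 (chr1:60908775-60909024, plus strand) and Tigit (chr16:43664185-43664434, minus strand), both higher with IL-33 in the Th2 cells described below, and Pdcd1 (chr1:94052554-94052803, minus strand), which was lower. Each runs 5′ to 3′ on the gene's strand. Capitals mark the letters GGAAA, the core that NFAT factors prefer, read on either strand (TTTCC on the opposite one), and AGATAA, a motif that GATA factors bind.
Ctla4: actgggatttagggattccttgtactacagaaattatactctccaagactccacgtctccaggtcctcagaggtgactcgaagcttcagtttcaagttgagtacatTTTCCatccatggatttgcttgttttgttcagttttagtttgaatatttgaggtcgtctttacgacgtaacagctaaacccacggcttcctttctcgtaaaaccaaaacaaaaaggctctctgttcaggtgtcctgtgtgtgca
Tigit: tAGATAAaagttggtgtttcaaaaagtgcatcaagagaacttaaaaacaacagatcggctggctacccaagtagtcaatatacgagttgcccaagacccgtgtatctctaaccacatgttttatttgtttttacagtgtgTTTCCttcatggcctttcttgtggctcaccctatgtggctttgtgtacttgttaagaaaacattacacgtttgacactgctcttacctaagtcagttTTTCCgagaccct
Pdcd1: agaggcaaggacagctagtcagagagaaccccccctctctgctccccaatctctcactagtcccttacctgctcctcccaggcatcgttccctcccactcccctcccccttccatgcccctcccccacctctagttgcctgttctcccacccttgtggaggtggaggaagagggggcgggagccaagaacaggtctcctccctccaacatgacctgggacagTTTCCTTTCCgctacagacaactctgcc
The NFAT core occurred once in the Ctla4 window, 144 bases before the start, and in both other windows 2 times, 110 and 13 bases before the start of Tigit and 28 and 23 bases before that of Pdcd1. It was present in 55.6% of 32851 promoters of that length, so its presence sets none of these genes apart. The GATA motif lay 249 bases before the start of Tigit and was present in 9.99% of promoters. The AP-1 motif TGANTCA (6.75% of promoters), the STAT motif TTCNNNGAA (7.02%), the interferon-stimulated response element (2.98%) and the NF-kB motif (7.25%) were also searched on both strands, and these letters were not in the 3 windows shown. No matches of different motifs overlapped.

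Values were FPKM, fragments per kilobase of transcript and per number of mapped fragments, which are scaled by gene length and can be compared between genes. Genes with at least 1 FPKM in at least 3 of a comparison's 6 libraries entered the test, which was limma on log2(FPKM + 1). Differences of genes near 1 FPKM are understated on that scale. Genes were called at a Benjamini-Hochberg adjusted p below 0.05. The sources used here give no read totals. Relative depth, read from the spacing of low values and set to 1.0 in one library per comparison, ran from 0.67 to 1.34 in Th2 cells, 0.36 to 1.0 in eosinophil libraries and 0.58 to 1.0 in lungs. Th2 libraries 5 (IL-2) and 6 (IL-2 and IL-33) were the shallowest of their set, and their titles spell ST2 high with a different case. Eosinophil libraries of sample numbers 3 and 4 and dGATA lung 1 also stood apart in marker genes, as given beside the results below.

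The first comparison asked what IL-33 changes in memory Th2 cells. With IL-33, 5 of the 10 genes rose (Ctla4, Icos, Cd28, Tigit and Lag3), 2 fell (Pdcd1 and Cd69) and 3 did not pass the test (Havcr2, Btla and Cd200). Ctla4 was 28.1-fold higher and became the most abundant of the 10, whereas Cd69, the most abundant without IL-33, was 3.89-fold lower. Of all 10296 genes tested, 42.1% were called, 16.3% higher and 25.7% lower, so 7 of 10 stands against a background in which calls were common. The groups did not overlap for 7 members, against 56.7% of all genes tested. The median log2 difference was 0.78 over the members and -0.11 over all genes tested. The 1680 higher and 2651 lower genes became 1902 and 1579 after rescaling to TPM, or 2111 and 1984 after median-of-ratios scaling, but the 5 and 2 members were called in both.

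**Figure D1:**
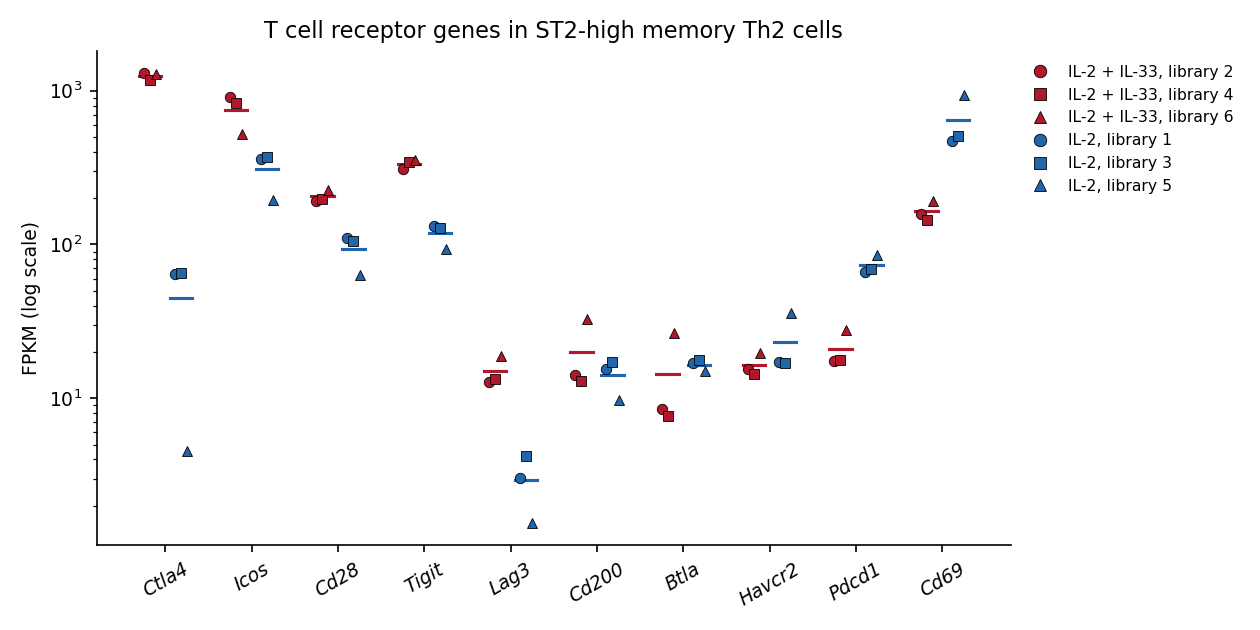
FPKM on a log axis of the 10 genes in the 6 Th2 libraries, cells with IL-2 and IL-33 in red and cells with IL-2 alone in blue, symbols marking libraries and lines the group means (n = 3). The red points stand above the blue for Ctla4, Icos, Cd28, Tigit and Lag3, below them for Pdcd1 and Cd69, and among them for Cd200, Btla and Havcr2, and the lowest Ctla4 point, at 4.54 FPKM, is IL-2 library 5.

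The cell type label was checked first. The T cell receptor chain gene Cd3e was at 158, 180 and 150 FPKM with IL-33, against 158, 171 and 144 FPKM with IL-2 alone (adjusted p = 0.778, limma), and Cd4 rose 1.68-fold to 129 ± 11.9 FPKM with IL-33, against 76.6 ± 3.03 FPKM with IL-2 alone (SD, n = 3 each; adjusted p = 0.00116, limma). Of 12 T cell markers, all tested, 7 rose and 2 fell, and their summed level was 2914 to 3034 FPKM with IL-33 and 2118 to 2345 FPKM without. Cd3g, Cd3d, Cd247 and Trat1 were among those that rose. Cd3e differed 1.03-fold while 3 other receptor chain genes rose, so levels are given per Cd3e where that helps, and the part of these genes in the results was not tested. In bulk RNA, fewer cells of a type and less RNA per cell cannot be told apart. Of 10 CD8 T and natural killer cell markers, 5 were tested, 2 rose and 2 fell, and their summed level was 1615 to 2798 FPKM with IL-33 and 830.5 to 1717 FPKM without. Most of that sum came from Gzmb and Gzma, whose levels follow. The defining markers Cd8a and Ncr1 were at most 0.0699 FPKM and at 0 in all 6 libraries. Gzma, a granzyme gene of cytotoxic cells, rose to 765, 686 and 295 FPKM with IL-33, against 40.3, 49.3 and 16.8 FPKM with IL-2 alone (log2 4.01, adjusted p = 0.00104, limma), and Cd8b1, the gene of the other CD8 chain, to 12.3 ± 3.40 FPKM with IL-33, against 4.38 ± 1.09 FPKM with IL-2 alone (adjusted p = 0.00344, limma). Klrd1 and Nkg7 fell, and Gzmb, at 1986, 2098 and 1302 FPKM with IL-33, against 1552, 1655 and 794 FPKM with IL-2 alone, was not called (adjusted p = 0.268, limma). The part of these genes in the receptor results was not tested. The 8 B cell markers summed to at most 1.63 FPKM. The 18 macrophage and dendritic cell markers summed to 11.4 to 15.2 FPKM with IL-33 and to 13.3 to 16.7 FPKM without.

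Among the costimulatory members, Cd28 was at 193, 198 and 228 FPKM with IL-33, against 111, 105 and 63.6 FPKM with IL-2 alone. Every IL-33 library lay above every IL-2 library, and the lowest value was that of library 5. The mean was 2.21-fold higher (log2 difference 1.18, SE 0.21, adjusted p = 0.00519, limma). Icos, which sustains cytokine production by helper T cells, was at 905, 833 and 522 FPKM with IL-33, against 361, 371 and 194 FPKM without. Its groups did not overlap either, and libraries 6 and 5 were the lowest of their groups. Icos rose 2.44-fold (log2 1.305, SE 0.31, adjusted p = 0.0145, limma), a call lost without IL-33 library 2 (adjusted p = 0.0558) or 4 (0.0567).

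Ctla4, the inhibitory counterpart of Cd28, was at 1299, 1182 and 1278 FPKM with IL-33, against 64.4, 65.0 and 4.54 FPKM with IL-2 alone. The IL-33 libraries were close to each other, and IL-2 library 5 was far below the other IL-2 libraries. The log2 difference was 5.44 (SE 0.90, adjusted p = 0.00384, limma), and 4.25 without library 5 (adjusted p = 1.81e-05). With libraries 1 to 4 alone, an alternative chosen after seeing the data, it was 4.24. Relative to Cd3e, Ctla4 was at 8.22, 6.56 and 8.55 with IL-33, against 0.406, 0.379 and 0.0315 without.

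The PD-1 gene Pdcd1 went the other way. It was at 17.5, 17.7 and 28.0 FPKM with IL-33, against 66.5, 69.0 and 85.9 FPKM with IL-2 alone, with no overlap. The fall was 3.50-fold (log2 difference -1.79, SE 0.19, adjusted p = 0.000690, limma). Btla, the receptor for the TNF receptor family protein HVEM, was at 8.55, 7.62 and 26.7 FPKM with IL-33, against 16.9, 17.6 and 15.2 FPKM without. Library 6 was above all IL-2 libraries and the other IL-33 libraries were below them, so the groups overlapped (log2 -0.41, SE 0.41, adjusted p = 0.447, limma). Without library 6, Btla was called lower (log2 -0.95, adjusted p = 0.00114), and likewise in libraries 1 to 4 alone (log2 -1.01, adjusted p = 2.04e-05).

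Outside the CD28 family, Tigit was at 308, 344 and 355 FPKM with IL-33, against 133, 127 and 94.0 FPKM with IL-2 alone, and rose 2.84-fold (log2 1.51, SE 0.15, adjusted p = 0.000428, limma). Its spread within groups was the smallest among the 5 genes that rose, by the SE of the log2 difference. Lag3, a CD4-like receptor for MHC class II, was far less abundant, at 12.7, 13.4 and 18.7 FPKM with IL-33, against 3.04, 4.2 and 1.56 FPKM without. Neither gene's groups overlapped, and Lag3 rose 5.10-fold (log2 2.06, SE 0.27, adjusted p = 0.00147, limma). Havcr2, the TIM-3 gene, was at 15.5, 14.3 and 19.7 FPKM with IL-33, against 17.1, 17.0 and 35.6 FPKM without. Libraries 6 and 5 held the highest value of each group, and the groups overlapped (log2 -0.40, SE 0.28, adjusted p = 0.287, limma). With the title spelling that sets libraries 5 and 6 apart as a term in the fit, chosen after seeing the data, Havcr2 was called lower (log2 -0.40, adjusted p = 0.0384).

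Cd69 was at 158, 144 and 192 FPKM with IL-33, against 473, 506 and 942 FPKM with IL-2 alone. All IL-33 libraries were below all IL-2 libraries, of which library 5 was the highest (log2 difference -1.89, SE 0.27, adjusted p = 0.00201, limma). Cd200 was at 14.2, 12.9 and 32.5 FPKM with IL-33, against 15.5, 17.1 and 9.72 FPKM without. The groups overlapped, with library 6 the highest and library 5 the lowest (log2 0.38, SE 0.36, adjusted p = 0.415, limma). In libraries 1 to 4 alone the sign turned and Cd200 was called lower (log2 -0.25, adjusted p = 0.0341).

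The order of the 10 levels differed between the groups. With IL-33, mean levels ran from Ctla4 (1253 FPKM, 44.8% of the sum of the 10) through Icos (753 FPKM), Tigit (335 FPKM), Cd28 (206 FPKM) and Cd69 (165 FPKM), and no neighbours among these overlapped. Pdcd1, Cd200, Havcr2, Lag3 and Btla followed at 14.3 to 21.1 FPKM, and each overlapped its neighbour in the order. With IL-2 alone, Cd69 came first (640 FPKM, 48.0% of the sum), then Icos (309 FPKM), with no overlap between them. Tigit, Cd28 and Pdcd1 formed an overlapping run from 118 to 73.8 FPKM. Ctla4, Havcr2, Btla and Cd200 formed another, from 44.6 to 14.1 FPKM, and Lag3 was last at 2.93 FPKM.

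CD28 and CTLA-4 bind the same ligands, so the ratio of their FPKM was compared within each library. Ctla4 over Cd28 was 6.73, 5.97 and 5.62 in Th2 cells with IL-33, against 0.582, 0.616 and 0.0714 with IL-2 alone. Ctla4 thus exceeded Cd28 in every IL-33 library and in none of the IL-2 libraries. The mean log2((Ctla4 + 1)/(Cd28 + 1)) was 2.60 ± 0.13 with IL-33 and -1.67 ± 1.62 without (SD, n = 3 each), a difference of 4.27 (exact permutation p = 0.1, two-sided, the smallest that 3 against 3 can give; 0.15 adjusted over 3 ratios). Without library 5 the difference was 3.33. In eosinophil libraries the ratio was 0.300, 0.169 and 0.103 with amphiregulin, against 0.135, 0.182 and 0 without, from CTLA4 levels near 1 FPKM or lower. On the log2 scale with 1 added, the eosinophil groups did not overlap (difference 0.63, exact permutation p = 0.1, adjusted 0.15), although the plain ratios did. On that scale CTLA4 itself differed by 0.016 and CD28 by -0.61, so the 0.63 restates the CD28 difference and shows no change in CTLA4. In lungs the plain ratio was 0.370, 1.49 and 1.17 in dGATA mice, against 1.09, 1.39 and 1.05 in wild-type mice (log2 difference -0.21, exact permutation p = 0.9). Libraries of the 3 materials were normalized separately, and no test was made across them.

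**Figure D2:**
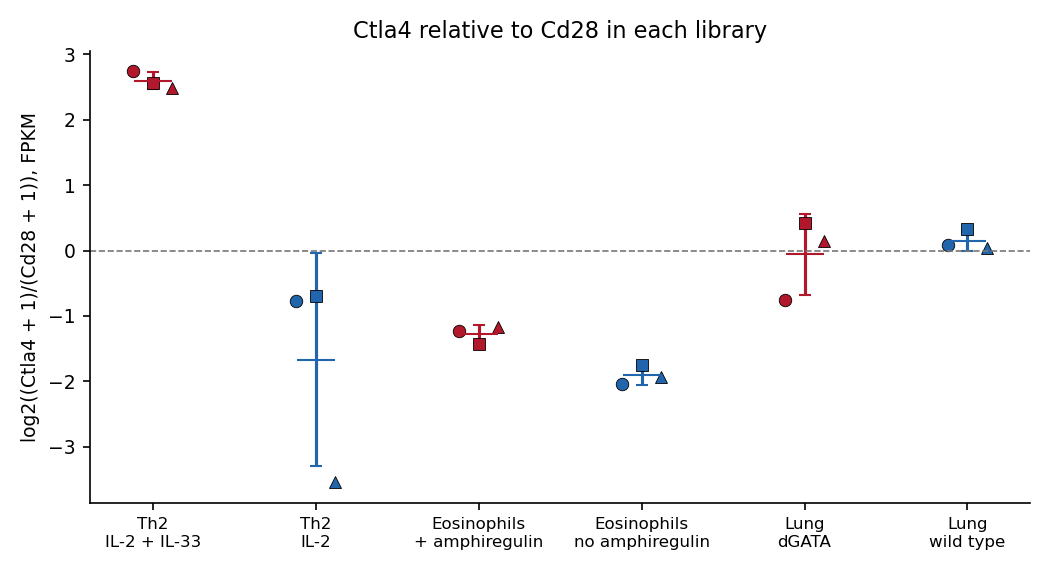
The log2 of (Ctla4 + 1)/(Cd28 + 1) in FPKM in each of the 18 libraries, with group means and SD (n = 3 each), the IL-33, amphiregulin and dGATA groups in red and the groups they were set against in blue. The 3 Th2 libraries with IL-33 lie between 2.48 and 2.74 and the 3 with IL-2 alone lie below 0.

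Ligands and partners of these receptors are expressed by T cells as well. Of 15 listed, 10 were tested in the Th2 cells, and 2 rose and 6 fell. The list's median log2 difference was -0.68. Over all genes tested in the Th2 cells, beside which this list and the next ones stand, 16.3% rose and 25.7% fell, with a median of -0.11. Cd86, a ligand of CD28 and CTLA-4, fell to 0.240, 0.207 and 0.217 FPKM with IL-33, against 6.86, 7.5 and 10.1 FPKM with IL-2 alone (log2 -2.89, SE 0.14, adjusted p = 2.78e-05, limma), while Cd80 was below 1.29 FPKM in all 6 libraries. The PD-L1 gene Cd274 was at 37.1, 35.9 and 61.3 FPKM with IL-33, against 116, 122 and 153 FPKM without, a 2.92-fold fall (adjusted p = 0.00189, limma). Lgals9, which encodes the TIM-3 ligand galectin-9, fell 3.82-fold to 55.7 ± 5.86 FPKM with IL-33, against 213 ± 21.7 FPKM with IL-2 alone (SD, n = 3 each; adjusted p = 5.26e-05, limma). Lgals3, whose product galectin-3 has been reported to bind LAG-3, rose 8.10-fold to 28.6 ± 4.26 FPKM with IL-33, against 3.54 ± 1.86 FPKM with IL-2 alone (SD, n = 3 each; adjusted p = 0.000937, limma). The other called ligands, named after their values were seen and given as means with IL-33 and with IL-2 alone, were the PD-L2 gene Pdcd1lg2 (13.7 and 24.6 FPKM, log2 -0.82), the ICOS ligand gene Icosl (0.819 and 2.56 FPKM, log2 -0.96) and the TIGIT ligand gene Pvr (3.64 and 5.23 FPKM, log2 -0.43), all lower with IL-33. S1pr1, the partner of CD69, was higher (2.31 FPKM with IL-33 and 1.11 FPKM with IL-2 alone, log2 0.64, adjusted p = 0.0106, limma).

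Receptors related to the members moved in both directions. Of 17 listed, 9 were tested, and 2 rose and 3 fell, with a median log2 difference of -0.30. Cd5, a brake on T cell receptor signalling, fell 2.41-fold to 73.1 ± 24.6 FPKM with IL-33, against 176 ± 23.0 FPKM with IL-2 alone (SD, n = 3 each; adjusted p = 0.00452, limma). Cd226, the activating receptor that shares ligands with TIGIT, fell to 3.27 ± 0.22 FPKM with IL-33, against 4.79 ± 0.31 FPKM with IL-2 alone (adjusted p = 0.00967, limma), so that it moved opposite to Tigit. Klrg1, an inhibitory lectin receptor, rose 4.60-fold to 5.36 ± 1.67 FPKM with IL-33, against 1.16 ± 0.78 FPKM with IL-2 alone (adjusted p = 0.00704, limma). Ctla2a, which despite its name encodes an inhibitor of cysteine proteases and no receptor, rose 2.34-fold (adjusted p = 0.00168, limma), and reads of its near-identical neighbour Ctla2b could be counted with it.

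Of 20 signalling genes downstream of the receptors, 19 were tested, and 2 rose and 8 fell. Ptpn6, the gene of the phosphatase SHP-1, fell 2.83-fold to 26.2 ± 1.68 FPKM with IL-33, against 74.1 ± 23.0 FPKM with IL-2 alone (SD, n = 3 each; adjusted p = 0.00182, limma). The diacylglycerol kinase genes, whose products damp signalling, moved in opposite directions, Dgka up to 48.7 ± 1.48 FPKM with IL-33, against 26.3 ± 2.22 FPKM with IL-2 alone (adjusted p = 0.000458, limma), and Dgkz down to 22.2 ± 2.96 FPKM with IL-33, against 37.6 ± 8.03 FPKM with IL-2 alone (adjusted p = 0.0119, limma). Lck, the kinase bound to CD4, was 1.26-fold higher (adjusted p = 0.0123, limma). The median over the list was -0.06, near the -0.11 over all genes tested.

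Transcription factors linked to activation and to exhaustion, a state of chronically stimulated T cells with several inhibitory receptors, were also counted. Of 23 listed, 19 were tested, and 8 rose and 7 fell, with a median log2 difference of 0.45. Tox2 rose 13.4-fold to 12.8, 14.3 and 11.4 FPKM with IL-33, against 1.17, 1.63 and 0.0762 FPKM with IL-2 alone (adjusted p = 0.000671, limma), and Tox lay below the filter at 0.143 ± 0.108 FPKM with IL-33, against 0.851 ± 0.170 FPKM with IL-2 alone. Batf, an AP-1 family factor of effector T cells, rose 2.25-fold to 343 ± 50.3 FPKM with IL-33, against 152 ± 19.8 FPKM with IL-2 alone (adjusted p = 0.00104, limma). Nr4a1, induced by T cell receptor signals, rose 3.27-fold (adjusted p = 0.00106, limma). Nfatc1, an NFAT factor switched on by calcium signals, fell 2.38-fold to 23.4 ± 3.97 FPKM with IL-33, against 55.7 ± 4.95 FPKM with IL-2 alone (SD, n = 3 each; adjusted p = 0.000663, limma).

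Ctla4, Icos and Tigit are also high in regulatory T cells, so markers of those cells were set beside them. Foxp3, their defining factor, was at 1.10, 1.10 and 0.919 FPKM with IL-33, against 0.631, 0.351 and 0.114 FPKM without, and was below the filter. Ikzf2 was below 0.46 FPKM in every Th2 library. Of 8 markers listed, 5 were tested, and 4 rose and none fell: Ccr8 (131 and 22.3 FPKM), Ikzf4 (14.0 and 4.27 FPKM), Il2ra (1946 and 882 FPKM) and Tnfrsf4 (806 and 601 FPKM), given as means with IL-33 and with IL-2 alone. Il2ra and Tnfrsf4 are also expressed by activated T helper cells. The summed level of the 8 markers was 3187 to 3281 FPKM with IL-33 and 1456 to 1963 FPKM without, most of it from Il2ra and Tnfrsf4. The part of the 8 markers in the receptor results was not tested.

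**Figure D3:**
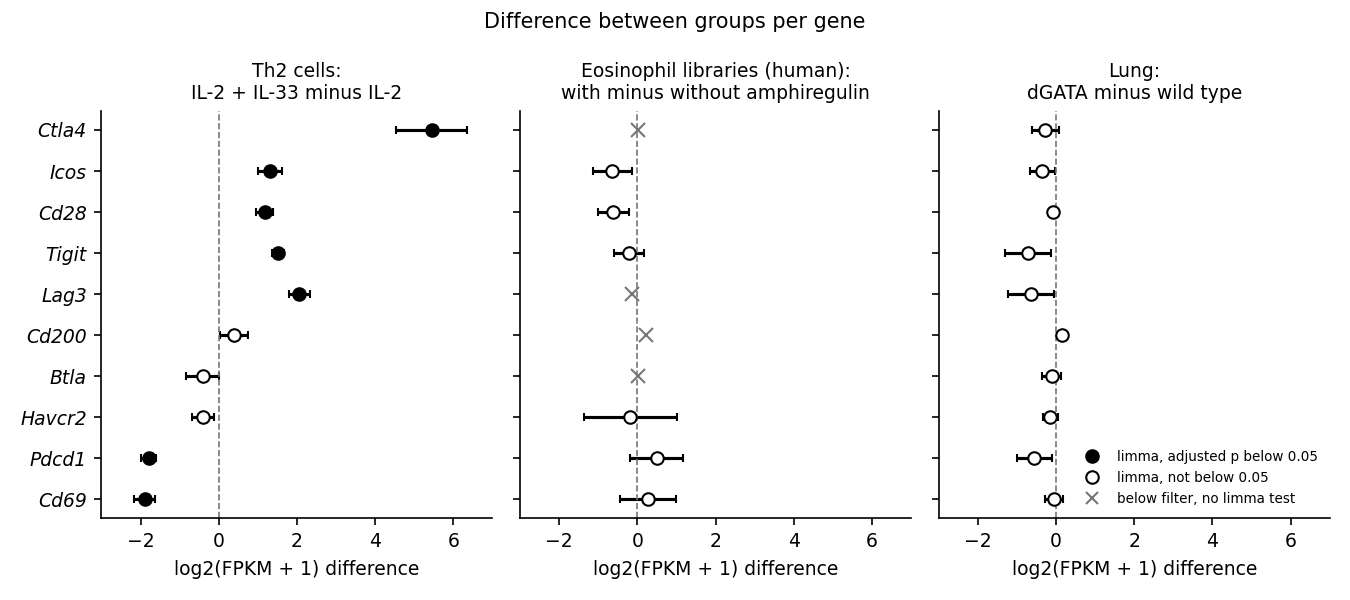
Difference in log2(FPKM + 1) of each of the 10 genes in the 3 comparisons, with SE bars from limma (n = 3 per group), filled circles marking adjusted p below 0.05, open circles tested genes above it and crosses genes below the expression filter, drawn without a bar. The 7 filled circles, all in the Th2 panel, run from 5.44 for Ctla4 to -1.89 for Cd69.

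The eosinophil comparison asked what amphiregulin changes in these cells. None of the 6 members that could be tested was called (0 also at an unadjusted p below 0.05), and for the 4 below the filter exact permutation p ran from 0.4 to 1.0, where 0.1 is the smallest possible. No member's groups were free of overlap. Of 12616 genes tested, 0.206% were called, 4 (0.0317%) higher and 22 (0.174%) lower, or 8 higher and 22 lower after rescaling to TPM, and 6.7% had groups that did not overlap. With the sample number as a block, 1.12% of all genes were called and still none of these 6. Array weights, whose estimate did not converge here, called CD28 lower (log2 -0.60, adjusted p = 0.0370).

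Before the members, the cells' labels were checked against markers. The eosinophil gene CLC was at 867, 1161 and 2620 FPKM with amphiregulin, against 1490, 1235 and 4483 FPKM without, and CCR3, the eotaxin receptor, at 28.5, 42.2 and 90.2 FPKM with amphiregulin, against 53.4, 72.2 and 137 FPKM without. T cell and myeloid genes were present as well. CD3E was at 65.9, 51.7 and 27.6 FPKM with amphiregulin, against 119, 93.5 and 53.3 FPKM without, and the monocyte gene LYZ at 535, 466 and 127 FPKM with amphiregulin, against 1367, 1134 and 200 FPKM without. Of 10 eosinophil markers, all tested and none called, 6 were highest in number 4 of both groups, CLC and CCR3 among them. The granule protein genes PRG2 and RNASE2 were instead lowest there, PRG2 at 138, 108 and 8.63 FPKM with amphiregulin, against 37.9, 29.9 and 26.2 FPKM without, and RNASE2 at 33.6, 16.9 and 2.65 FPKM with amphiregulin, against 25.1, 20.5 and 2.17 FPKM without. EPX, another granule gene, was at 23.6, 2.26 and 0.561 FPKM with amphiregulin, against 1.45, 0 and 0.552 FPKM without. Of 17 macrophage and dendritic cell markers found, 14 were lowest in number 4 of both groups, LYZ among them, and of the 12 T cell markers 9 were, CD3E among them. Number 3 stood apart in mast cell and basophil markers. Their sum was 159.1, 628.4 and 93.9 FPKM with amphiregulin, against 235.5, 944.8 and 131.4 FPKM without.

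Between the groups, 16 macrophage and dendritic cell markers were tested, and none was called, 8 having a log2 difference above and 8 below 0, and 5 an unadjusted p below 0.05. The list summed to 669 to 1938 FPKM with amphiregulin and to 726 to 3836 FPKM without. CD209 was at 52.9, 35.9 and 8.21 FPKM with amphiregulin, against 0.532, 0.152 and 0.444 FPKM without (adjusted p = 0.148, limma), and the mannose receptor gene MRC1 at 55.3, 93.8 and 16.8 FPKM with amphiregulin, against 2.17, 2.75 and 0.535 FPKM without (adjusted p = 0.211, limma). CD14 was at 10.8, 12.5 and 0.852 FPKM with amphiregulin, against 246, 221 and 14.3 FPKM without (adjusted p = 0.999, limma), and CD163 at 1.94, 2.94 and 0.361 FPKM with amphiregulin, against 29.3, 35.7 and 5.03 FPKM without (adjusted p = 0.927, limma). These 4 genes had groups that did not overlap, CD209 and MRC1 higher and CD14 and CD163 lower with amphiregulin. The 12 T cell markers summed to 149 to 323 FPKM with amphiregulin and to 248 to 572 FPKM without, and all 11 tested had a negative log2 difference, although none was called, at an unadjusted p below 0.05 either.

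HAVCR2 and CD69 were the most abundant of the 10 in these libraries. HAVCR2, which myeloid cells express too, was at 39.5, 51.8 and 4.80 FPKM with amphiregulin, against 42.3, 73.5 and 4.59 FPKM without (log2 -0.18, SE 1.18, adjusted p = 0.999, limma). Number 4 was far below the others in both groups, and LYZ was low there too. CD69 was at 19.7, 9.90 and 62.5 FPKM with amphiregulin, against 12.2, 14.8 and 38.0 FPKM without (log2 0.27, SE 0.71, adjusted p = 0.999, limma). Here number 4 was the highest of both groups, as it was for CLC but not for PRG2 or RNASE2. Whether these marker levels account for the receptor levels was not tested.

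CD28 was at 4.53, 3.11 and 1.64 FPKM with amphiregulin, against 6.92, 6.09 and 2.82 FPKM without (log2 -0.61, SE 0.40, adjusted p = 0.999, limma; -0.94 to -0.33 on leaving out each library). Each number was lower with amphiregulin, but the groups overlapped. Relative to CD3E, CD28 was at 0.0687, 0.0602 and 0.0596 with amphiregulin, against 0.0581, 0.0652 and 0.0529 without, so that CD28 kept nearly the same proportion to the T cell gene in all 6 libraries. ICOS was at 2.54, 1.67 and 0.462 FPKM with amphiregulin, against 3.71, 4.46 and 1.04 FPKM without (log2 -0.64, SE 0.50), in the same order of sample numbers within the group with amphiregulin as CD28. PDCD1 was at 4.18, 7.48 and 0.591 FPKM with amphiregulin, against 3.34, 2.61 and 0.605 FPKM without (log2 0.49, SE 0.68), lowest in number 4 of both groups. TIGIT was at 1.47, 0.369 and 0.816 FPKM with amphiregulin, against 1.82, 0.401 and 1.42 FPKM without (log2 -0.21, SE 0.38). These 3 genes did not keep a steady proportion to CD3E as CD28 did. Per CD3E, ICOS ran from 0.0168 to 0.0477, PDCD1 from 0.0114 to 0.145 and TIGIT from 0.00429 to 0.0296 over the 6 libraries. The part of T cell content in these levels was not tested.

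CTLA4, LAG3, BTLA and CD200 were near or below 1 FPKM and were not tested by limma. CTLA4 was at 1.36, 0.526 and 0.170 FPKM with amphiregulin, against 0.930, 1.11 and 0 FPKM without, LAG3 between 0.413 and 1.81 FPKM in all 6 libraries, BTLA between 0 and 0.757 FPKM, and CD200 at 1.01, 1.16 and 0.280 FPKM with amphiregulin, against 0.460, 0.550 and 0.574 FPKM without. Of the ligands, 11 of 15 were tested and none was called, 2 having an unadjusted p below 0.05. ICOSLG was at 20.9, 24.9 and 17.2 FPKM with amphiregulin, against 6.5, 5.78 and 7.16 FPKM without, with no overlap (log2 1.55, SE 0.23, adjusted p = 0.136, limma). CD200R1, the receptor for CD200, averaged 12.8 ± 2.60 FPKM with amphiregulin, against 5.10 ± 3.43 FPKM without (SD, n = 3 each; adjusted p = 0.999, limma).

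**Figure D4:**
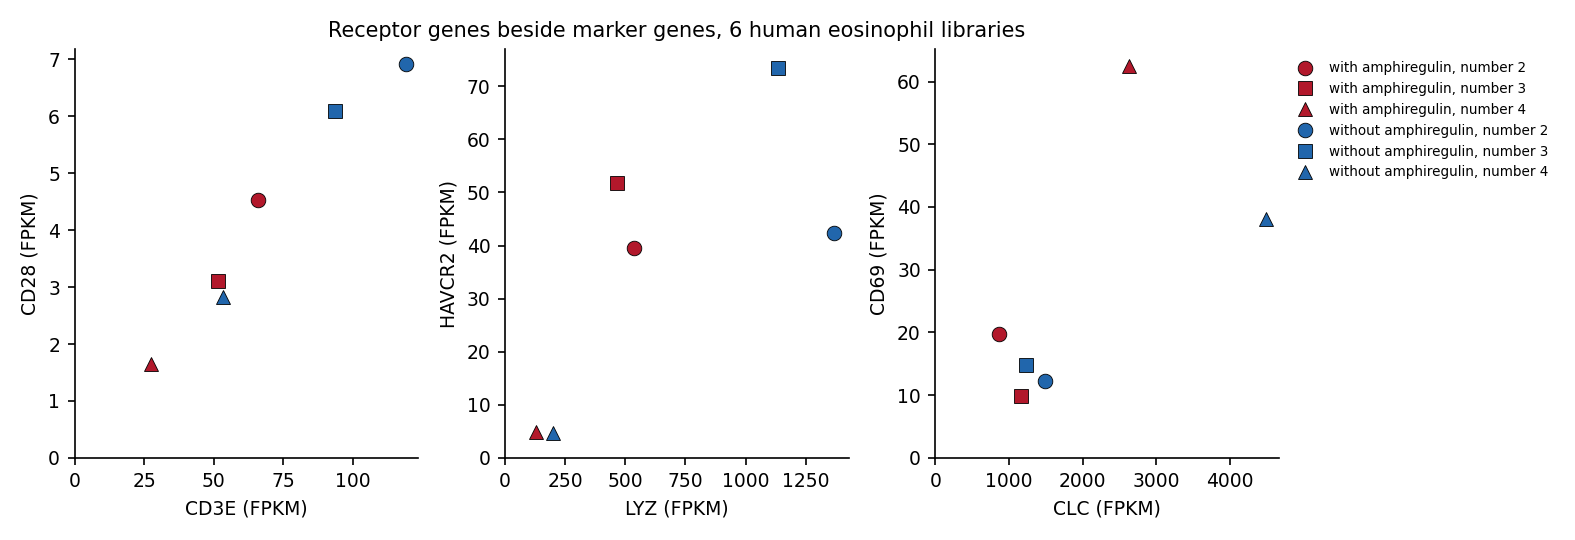
FPKM of CD28 beside CD3E, HAVCR2 beside LYZ and CD69 beside CLC in the 6 human eosinophil libraries, red with and blue without amphiregulin, symbols marking sample numbers. CD28 lies near a straight line with CD3E, and the triangles of number 4 are lowest for HAVCR2 and highest for CD69.

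In the lung, the comparison set dGATA against wild-type mice after OVA. The dGATA label was checked on eosinophil genes: Ccr3 was at 0.0493, 0.252 and 0.0729 FPKM in dGATA lungs, against 5.69, 5.88 and 4.53 FPKM in wild-type lungs (adjusted p = 0.00326, limma), and Prg2, a granule protein gene, at 0.0794, 0.677 and 0.529 FPKM in dGATA lungs, against 12.2, 10.9 and 6.00 FPKM in wild-type lungs (adjusted p = 0.0427, limma). Of 7 eosinophil markers tested, 7 had a log2 difference below 0, but only 3 were called lower. Ear1 and Il5ra, named after their values were seen, differed little between the group means. Ear1 averaged 47.7 FPKM in dGATA and 47.6 FPKM in wild-type lungs, and Il5ra 0.999 and 1.16 FPKM. None of the 10 T cell receptor genes was called (limma; 0 also at an unadjusted p below 0.05 and with array weights), and for none were the groups free of overlap. Among 13727 genes tested, 0.0947% were called, 6 (0.0437%) higher and 7 (0.051%) lower, or 5 and 9 after rescaling to TPM, and 14.1% did not overlap. The log2 difference was below 0 for 9 of the 10 members, with a median of -0.21, against -0.03 over all genes.

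**Figure D5:**
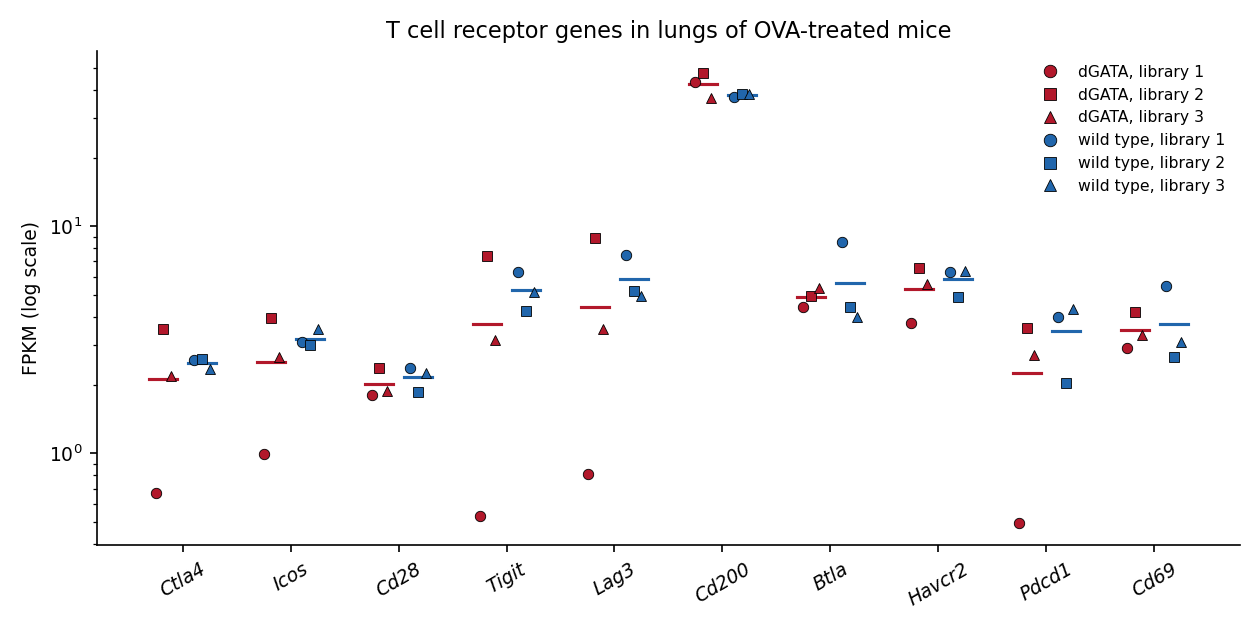
FPKM on a log axis of the 10 genes in the 6 lungs, dGATA in red and wild type in blue, symbols marking libraries and lines the group means (n = 3). Cd200 stands near 40 FPKM and the other genes below 9 FPKM, and dGATA lung 1 is the lowest point for 7 of the 10 genes (Ctla4, Icos, Tigit, Lag3, Pdcd1, Cd28 and Havcr2).

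Cd200 was by far the most abundant of the 10 in lung, at 43.1, 47.2 and 36.7 FPKM in dGATA mice, against 37.1, 38.4 and 38.1 FPKM in wild-type mice (log2 0.15, SE 0.11, adjusted p = 0.846, limma). Endothelial cells are known to express it, beside lymphocytes. In the Th2 cells, whose tables were normalized separately, it averaged 19.9 FPKM with IL-33 and 14.1 FPKM with IL-2 alone. All other members averaged between 2.02 and 5.84 FPKM in both groups of lungs.

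dGATA lung 1 was low in several members. Lag3 was at 0.812, 8.90 and 3.55 FPKM in dGATA lungs, against 7.44, 5.17 and 4.92 FPKM in wild-type lungs (log2 -0.64, SE 0.58, adjusted p = 0.892, limma). Tigit was at 0.531, 7.40 and 3.17 FPKM in dGATA lungs, against 6.26, 4.26 and 5.15 FPKM in wild-type lungs (log2 -0.71, SE 0.58, adjusted p = 0.876, limma). The wild-type values fell inside the range of the dGATA values for both genes, which dGATA lungs 1 and 2 set. The same library was lowest for Pdcd1 (0.496, 3.58 and 2.72 FPKM in dGATA lungs, against 3.98, 2.04 and 4.32 FPKM in wild-type lungs), Ctla4 (0.671, 3.53 and 2.20 FPKM in dGATA lungs, against 2.58, 2.60 and 2.35 FPKM in wild-type lungs) and Icos (0.991, 3.94 and 2.66 FPKM in dGATA lungs, against 3.11, 2.99 and 3.52 FPKM in wild-type lungs). Cd3e was at 6.01, 16.4 and 11.4 FPKM in dGATA lungs, against 11.95, 9.98 and 10.98 FPKM in wild-type lungs, so lung 1 also had the lowest Cd3e, and the 12 T cell markers summed to 79.3, 213 and 163 FPKM in dGATA lungs, against 156, 119 and 134 FPKM in wild-type lungs. Its low values were not confined to T cell genes. Lung 1 also had the lowest sums of B cell (52.4 FPKM), eosinophil (179 FPKM) and macrophage and dendritic cell markers (4988 FPKM). The housekeeping sum was lowest there too (3293 FPKM), whereas the endothelial and stromal sum was the highest (27090 FPKM). Per Cd3e, Tigit was still lowest there, at 0.0883, 0.452 and 0.278 in dGATA lungs, against 0.524, 0.426 and 0.469 in wild-type lungs. Lag3, Pdcd1, Ctla4 and Icos were lowest in lung 1 on that scale too. The other members were instead highest there: Cd28 at 0.302, Havcr2 at 0.622, Btla at 0.731, Cd200 at 7.17 and Cd69 at 0.485. The part of T cell numbers in these values was not tested. Without dGATA lung 1, the log2 difference of Ctla4 turned to 0.12 and that of Icos to 0.02, and those of Lag3, Tigit and Pdcd1 shrank to -0.01, -0.06 and -0.07.

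Cd28, Havcr2, Btla and Cd69 varied less, although dGATA lung 1 was the lowest of the 6 for Cd28 and Havcr2 too. Cd28 was at 1.81, 2.37 and 1.89 FPKM in dGATA lungs, against 2.38, 1.86 and 2.25 FPKM in wild-type lungs (log2 -0.07, SE 0.12). Havcr2 was at 3.74, 6.56 and 5.57 FPKM in dGATA lungs, against 6.32, 4.86 and 6.35 FPKM in wild-type lungs (log2 -0.14, SE 0.19). Btla, at 4.39, 4.96 and 5.37 FPKM in dGATA lungs, against 8.55, 4.39 and 4.01 FPKM in wild-type lungs, and Cd69, at 2.92, 4.21 and 3.32 FPKM in dGATA lungs, against 5.45, 2.66 and 3.09 FPKM in wild-type lungs, were both highest in wild-type lung 1. Of their ligands, 14 of 15 were tested and none was called, 1 having an unadjusted p below 0.05. Icosl was at 7.01, 7.66 and 11.5 FPKM in dGATA lungs, against 15.2, 11.96 and 12.8 FPKM in wild-type lungs, with no overlap (log2 -0.58, SE 0.19, adjusted p = 0.642, limma).

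Across the 12 mouse libraries, the genes whose centred log2(FPKM + 1) profiles lay nearest to each member were found by root mean square distance. This is a description in which the Th2 and lung libraries account for most of the variation. Nearest to Ctla4 were Pth, at 0.75, and Mmp10, at 0.91, both farther than the nearest profile of any other member. Cd28 lay nearest to Satb1, at 0.13, and Gata3, at 0.22. Satb1 was also among the 2 nearest to Tigit, at 0.53, after Cst7 at 0.43. Havcr2 was nearest to Il18rap, at 0.15, Cd69 to Tnfsf8, at 0.44, Icos to Cyp11a1, at 0.36, Pdcd1 to Ptger4, at 0.36, Lag3 to Tec, at 0.38, Btla to Cdk5r1, at 0.24, and Cd200 to Pde8a, at 0.19.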

How the data were processed

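RNA of Th2 cells, eosinophils and lungs was extracted with TRIzol and prepared with a stranded mRNA kit, per the labels' protocols. The deposited tables hold FPKM per gene, which the authors made with Bowtie 0.12.8, TopHat 1.3.2 and Cufflinks 2.0.2 on mm10, per the submitters' processing notes. No read counts were used, so count models were not fitted. FPKM were summed over entries of the same symbol. The human tables' build was not given in the sources used here, and 140 Y-linked and X inactivation symbols were left out of them. Mouse starts were printed with 1 added, since 55.9% of 20565 symbols then share RefSeq's start.

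Each comparison was fitted on its own 6 libraries with limma 3.58.1 in R 4.3.3 (lmFit, eBayes with trend) on log2(FPKM + 1). Genes with at least 1 FPKM in at least 3 libraries were kept, p-values were two-sided, and members below the filter were compared by exact permutation. The script was tested on simulated data. Of 10 housekeeping genes none was at 0 in any library. Named were all members, up to 4 genes of each other list with the smallest p and a higher group mean of at least 1 FPKM, Cd3e, Cd4 and Cd8a, and the 2 nearest profiles of each member; exceptions are marked. Members and lists were chosen with earlier results of these data known. Some nearest profiles and list genes covered by that rule are not printed. Eosinophil libraries of equal sample number deviated together (correlations 0.399, 0.356 and 0.669 after removing group means, above 0.1), so a blocked fit by sample number stands beside the planned one. Unequal numbers 2 and 3 also deviated together (correlations 0.28 and 0.308), so equal numbering is not shown to pair them. Number 4 went against numbers 2 and 3 of the other group (correlations -0.505 to -0.427). Alternatives were other pseudocounts, filters, scalings, array weights, no trend, one fit over all mouse libraries, a block, title spelling as a term, omission of small RNA features and of each library.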

Additional observations from a re-analysis of the deposited data

How the results depend on the processing

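The 5 members called higher and 2 called lower in Th2 cells kept those counts under other pseudocounts, filters, scalings, no trend and a joint fit. Icos was lost without IL-33 library 2 or 4 (log2 1.00 to 1.55, adjusted p 0.00739 to 0.0567, on leaving out each library). Btla ran from -0.95 to -0.11 and was called with array weights (-0.92, adjusted p = 0.00512). Cd200 ran from -0.018 to 0.62, turning negative without IL-33 library 6, with array weights (-0.17) and in libraries 1 to 4 alone (-0.25), where 4 members were lower. For all genes, those lower numbered 1579 after TPM scaling and 4050 with array weights. Leaving out each library gave 1009 to 1540 higher and 1482 to 3122 lower. Array weights downweight libraries that deviate, and omissions leave fewer samples. Otherwise the cause was not tested. The Th2 groups share no replicate number. Libraries 5 and 6 deviated together (correlation 0.314), but so did 2 and 3 (0.267) and, less, 4 and 1 (0.176), so this alone does not set 5 and 6 apart. With the title spelling of libraries 5 and 6 as a term, chosen after seeing the data, 2156 genes were higher and 3668 lower, and 3 members were lower, Havcr2 being added.

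In the eosinophil libraries, no member was called under any setting except CD28 with array weights (1 lower). Counts of all genes (4 higher, 22 lower) were 1 and 6 with pseudocount 0.1, 2 higher with no filter, 2 and 6 with at least 5 FPKM, 8 higher after TPM scaling, 1867 and 1357 with array weights, 67 and 74 with the replicate block, 0 and 0 without small RNA features, 119 and 77 without them under the block, 128 and 62 with numbers 2 and 3 alone, and 0 to 25 and 0 to 24 on leaving out each library. TPM scaling moved the median of all genes to 0.20, against 0.02, and HAVCR2 to 0.016. On leaving out each library, CTLA4 ran from -0.32 to 0.25, PDCD1 from -0.030 to 1.18, LAG3 from -0.37 to 0.12, HAVCR2 from -1.29 to 0.82, BTLA from -0.18 to 0.16, CD69 from -0.42 to 0.85, CD28 from -0.94 to -0.33, ICOS from -1.08 to -0.28 and TIGIT from -0.51 to -0.0049. With numbers 2 and 3 alone, CTLA4 was -0.090, LAG3 0.13 and BTLA -0.031. The block changed no other call.

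In the lungs, no member was called under any setting. Counts of all genes (6 higher, 7 lower) were 558 and 878 with array weights, 4 lower with at least 5 FPKM, 19 and 74 in the joint fit, and 0 to 3 and 0 to 6 on leaving out each library. Lung libraries of equal number did not deviate together (correlations -0.286, -0.116 and -0.243), and the replicate block gave 2 higher and 1 lower. Ctla4 ran from -0.60 to 0.12, Havcr2 from -0.29 to 0.050, Icos from -0.64 to 0.017, Btla from -0.28 to 0.18, Cd69 from -0.21 to 0.20 and the Ctla4 to Cd28 ratio from -0.45 to 0.13. Lag3 ran from -1.24 to -0.011 and Tigit from -1.29 to -0.060. Cd200 was -0.017 with array weights, whose estimate converged neither for the lungs nor for the eosinophil libraries. Relative depth spanned 0.36 to 1.0 in eosinophil and 0.58 to 1.0 in lung libraries, and its part in the results was not tested.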

Other observations

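Further transcription factors of the activation list, named after their values were seen, changed with IL-33 in the Th2 cells. Maf and Nfil3, which are known in mouse T cells to accompany inhibitory receptor expression, rose to 192 ± 52.0 FPKM with IL-33, against 59.2 ± 32.1 FPKM with IL-2 alone (adjusted p = 0.0215, limma), and to 71.4 ± 16.9 FPKM with IL-33, against 18.1 ± 7.48 FPKM with IL-2 alone (adjusted p = 0.00384, limma), SD, n = 3 each. Both were lowest in library 5, at 22.2 and 9.77 FPKM, the IL-2 library that was also lowest in Ctla4. Among the IL-33 libraries both were lowest in library 6, at 134.5 and 53.8 FPKM, but Ctla4, at 1278 FPKM, was not. Of the other members that rose, Cd28, Tigit and Lag3 were highest in library 6 of that group and Icos was lowest. Within the IL-2 group, library 5 was also lowest for Icos, Cd28, Tigit, Lag3, Btla, Cd200 and Il2ra, and highest for Pdcd1, Cd69 and Havcr2. A link between these genes was not tested. Tbx21, the Th1 factor T-bet, fell to 3.93, 5.34 and 16.6 FPKM with IL-33, against 35.8, 37.2 and 70.3 FPKM with IL-2 alone (log2 -2.50, adjusted p = 0.00730, limma), and was highest in libraries 6 and 5 of their groups. Tcf7, a factor of memory T cells, fell to 4.95 ± 2.71 FPKM with IL-33, against 16.0 ± 6.84 FPKM with IL-2 alone (adjusted p = 0.0147, limma).

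The adaptor gene Lat fell to 348 ± 7.47 FPKM with IL-33, against 612 ± 36.1 FPKM with IL-2 alone (adjusted p = 0.000725, limma), while the receptor chain genes Cd3g and Cd3d rose 2.56-fold and 2.68-fold. Fyn fell to 38.2 ± 8.76 FPKM with IL-33, against 71.0 ± 17.5 FPKM with IL-2 alone (adjusted p = 0.0154, limma), opposite to Lck.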
